A study of Mus musculus with 12 samples.

Results

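The antioxidant and glutathione genes followed here are Gpx1, Gpx3, Cat, Sod2, Sod3, Gstm1, Gstm2, Mgst1, Aox1 and Abcg2. They were taken as every probe set that the annotation of the array assigns to exactly 1 of these 10 genes, which gave 18 of the 22690 probe sets on the array, for 10 of the 12393 genes that have such a probe set. The RNA came from hind limb muscle of C57BL/6J mice 8 to 12 weeks old, measured on 12 arrays, 4 for each of 3 cell populations. Quiescent satellite cells were sorted as SM/C-2.6 (+) and taken straight after the sort, and more than 97% carried Pax7 per the labels. Activated satellite cells were SM/C-2.6 (+) cells kept for 4 days in DMEM with 20% FCS and 2.5 ng/ml bFGF, and more than 99% carried MyoD. Non-myogenic cells were SM/C-2.6 (-) CD45 (-) and taken straight after the sort, with under 1% myogenic cells. No transgene or deletion is named for any group. Activation came with time in culture, serum and growth factor, so that these cannot be told apart. Nothing in the labels tells whether replicate arrays stand for separate mice, so the p-values cover the scatter among these samples alone, and that scatter may be technical.

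Superoxide dismutases turn superoxide into hydrogen peroxide, and catalase and the glutathione peroxidases break peroxides down, the latter with reduced glutathione as electron donor. Glutathione transferases join glutathione to reactive and foreign compounds. Many genes of these families are known targets of the transcription factor Nrf2, which binds antioxidant response elements. Quiescent satellite cells are the resting stem cells of muscle and are known for a low metabolic rate.

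To place the members beside that known regulation, the 250 bases before each start site were searched for the core of the antioxidant response element, TGACNNNGC, on both strands. The sequences are RefSeq's on the mouse build GRCm38.p6, and 9 of the 10 members matched, with 13 windows. When its variable letters are TCA this core also holds the AP-1 site TGACTCA, and the search did not tell them apart. The core was found in 1 of the 13 member windows, against 10.16% of the 32851 windows of that length over all genes. That window belongs to Mgst1 and is shown because it holds the match, in capitals, which reads TGACCGTGC on the other strand and ends 48 bases before the start site. The windows of Gpx3 and Gpx1, without a match, are shown because these peroxidase genes moved in opposite directions on activation. All 3 are on the plus strand, written 5′ to 3′.
Mgst1, chr6:138140277-138140526: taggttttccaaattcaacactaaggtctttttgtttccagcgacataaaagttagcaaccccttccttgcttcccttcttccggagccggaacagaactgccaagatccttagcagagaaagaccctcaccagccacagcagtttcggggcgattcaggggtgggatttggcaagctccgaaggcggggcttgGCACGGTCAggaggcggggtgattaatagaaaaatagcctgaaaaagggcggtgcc
Gpx3, chr11:54902604-54902853: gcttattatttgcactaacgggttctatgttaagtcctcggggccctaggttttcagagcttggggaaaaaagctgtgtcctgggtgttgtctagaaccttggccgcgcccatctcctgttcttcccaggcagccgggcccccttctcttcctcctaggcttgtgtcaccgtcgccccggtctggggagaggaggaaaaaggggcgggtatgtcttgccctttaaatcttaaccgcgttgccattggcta
Gpx1, chr9:108338830-108339079: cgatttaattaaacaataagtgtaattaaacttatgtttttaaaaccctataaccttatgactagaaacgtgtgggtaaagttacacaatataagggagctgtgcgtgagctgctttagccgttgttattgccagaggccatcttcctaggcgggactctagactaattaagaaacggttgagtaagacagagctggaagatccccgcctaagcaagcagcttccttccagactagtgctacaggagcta
A match describes letters only, and the absence of one says nothing of the factor.

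Values below are scaled signals, in which each array was multiplied to a common trimmed mean of 234. Differences are on the scale log2(signal + 14.6), where the added constant is the trimmed mean divided by 16 (by 64 and by 4 for the smaller and larger constants tried). This understates changes of low signals. The differences come from limma with Benjamini-Hochberg adjusted p-values over the 12095 probe sets tested, called under 0.05. Of the 18 member probe sets, 16 passed the filter on mean signal, and 1 each of Mgst1 and Sod2 did not. Signals of different genes were not compared with each other, because probe sets differ in brightness. In bulk RNA, fewer cells of a type and less RNA per cell cannot be told apart.

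The labels were checked against known markers. Pax7, which marks satellite cells, ranged from 643 to 1896 on the quiescent arrays, from 61.9 to 125 on the activated and from 1.24 to 6.64 on the non-myogenic arrays. Myod1 ranged from 812 to 1587 on the quiescent arrays, from 3297 to 5837 on the activated arrays and from 32.6 to 40.9 on the non-myogenic arrays. Markers of other cells also moved with the groups. The summed signal of all 15 endothelial markers was 4684 to 8295 on quiescent, 246 to 278 on activated and 19698 to 23611 on non-myogenic arrays. For 11 of 12 fibroblast markers found it was 12370 to 22478, 1409 to 1893 and 46332 to 82859 in the same order. For the 9 pericyte and smooth muscle markers it was 6128 to 9121, 2288 to 5274 and 10628 to 23437. For the 12 leukocyte markers it was 313 to 2919, 199.6 to 261 and 396 to 711. Only 5 of these 12 passed the filter on mean signal. Among them S100a8 and S100a9 varied widely on quiescent arrays, at 346 ± 583 and 246 ± 425 (mean and SD). The 7 myoblast and myocyte markers summed to 2509 to 5809, 7547 to 19666 and 4307 to 14611. Of that list, Ckm had means of 798, 74.9 and 3281 in the same order. Myog, Myh3, Tnnt2 and Chrng had means of 50.4, 4.51, 5.34 and 6.15 on non-myogenic arrays. Acta1 ranged from 698 to 2593 on quiescent, 289 to 4693 on activated and 2561 to 9386 on non-myogenic arrays. Its difference on activation was 2.24 with the small-sample labelling kit and -2.86 with the two-cycle kit. Labelling and state of the culture thus cannot be told apart between kits. No marker of these lists was at 0 on any array. The ratio of 3′ to 5′ Gapdh signal, a measure of RNA and labelling quality, was 4.02 ± 0.969 (SD, n = 4) in quiescent, 1.75 ± 0.411 in activated and 3.87 ± 0.916 in non-myogenic samples. These values move with the same groups as the member genes, and their part in the differences below was not tested.

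Between activated and quiescent satellite cells most member probe sets were lower after culture. Of the 16 tested, 12 fell, 3 rose and 1 was not called. Over all probe sets tested in that comparison 68.3% were called, 30.6% higher and 37.7% lower, so a call by itself is common. The median difference of the 16 was -1.80, against -0.12 over all tested probe sets. On the arrays themselves, 10 of the 18 lay wholly below and 2 wholly above the quiescent arrays, where 27.7% and 23.6% of all tested probe sets did so, 51.4% in all. By 1 leading probe set for each gene, 7 genes fell (Gpx3, Cat, Sod3, Gstm1, Gstm2, Mgst1 and Aox1), 2 rose (Gpx1 and Sod2) and Abcg2 was not called. The calls of Cat and Sod2 were the least firm of these, as given with each gene.

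**Figure D1:**
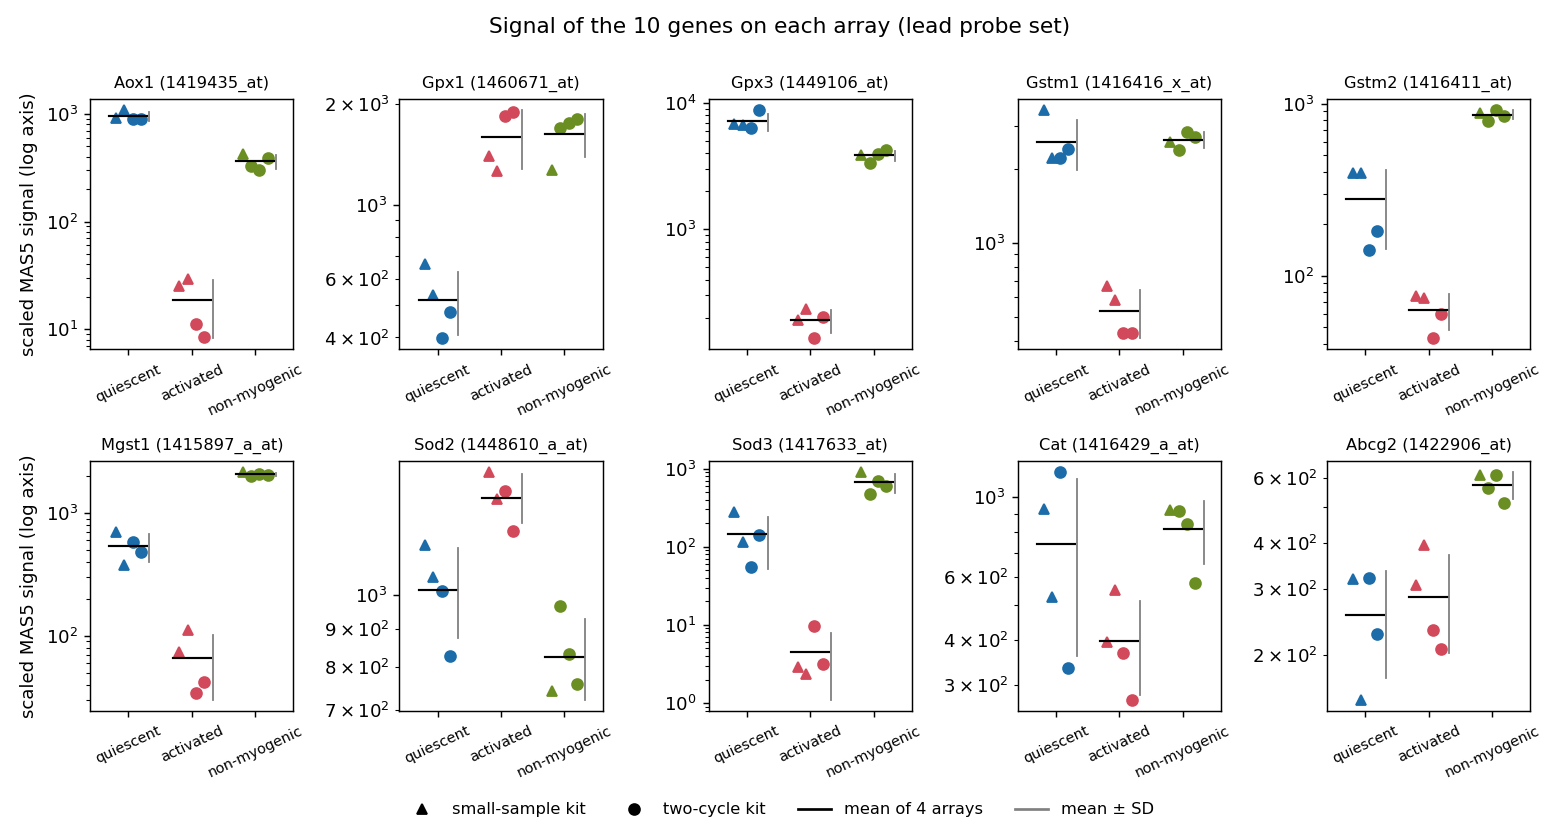
Scaled signal of the leading probe set of each of the 10 genes on every array, on a log axis, by cell population, with the mean and SD of the 4 arrays of each group. Gpx3 lies between 6318 and 8759 on the quiescent arrays and between 138 and 234 on the activated arrays, while Gpx1 runs the other way.

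The glutathione peroxidases differed most from each other. Gpx3, the secreted peroxidase, read 6804, 6719, 6318 and 8759 on the quiescent arrays. On the activated arrays it read 189.8, 234, 138 and 202, and on the non-myogenic arrays 3879, 3376, 3921 and 4218. The 3 groups did not overlap, with quiescent cells highest and activated cells lowest. Gpx3 fell by 5.13 ± 0.17 (SE) on the log2 scale from quiescent to activated cells (limma, adjusted p = 7.384e-11), a 37.4-fold lower mean signal. It was 0.87 ± 0.17 higher in quiescent than in non-myogenic cells (limma, adjusted p = 0.001026), and this call was lost on the unscaled values, at 0.47 with an adjusted p of 0.118 (limma). With the small-sample labelling kit alone the difference was 0.80. That kit had only 1 non-myogenic array, so within it only the sizes of differences from those cells are given.

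Gpx1, the cytosolic peroxidase found in most cells, read 662, 536, 398 and 476 on the quiescent arrays. It read 1401, 1259, 1842 and 1894 on the activated arrays and 1269.97, 1695, 1751 and 1801 on the non-myogenic arrays. All quiescent arrays lay below both other groups, which overlapped each other. The rise on activation was 1.60 ± 0.19 (limma, adjusted p = 6.204e-06), with 1.14 among arrays of the small-sample labelling kit and 2.06 among those of the two-cycle kit. Activated and non-myogenic cells differed by 0.00 ± 0.19, with a 95% interval of -0.42 to 0.42 (limma, adjusted p = 0.9986).

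Catalase, which breaks down hydrogen peroxide in peroxisomes, has a pair of probe sets. The leading one (1416429_a_at) read 929, 527, 1175 and 336 on the quiescent arrays, 395, 553, 369 and 273 on the activated arrays, and 919, 917, 842 and 577 on the non-myogenic arrays. Quiescent values spread widely and overlapped both other groups. Its difference on activation, -0.76 ± 0.32 with a limma adjusted p of 0.04867, is a fragile call: without quiescent replicate 3 the difference was -0.40 (limma, adjusted p = 0.1835). Leaving out quiescent replicate 1, activated replicate 1, 3 or 4, or any non-myogenic array also ended the call, with limma adjusted p-values from 0.05039 to 0.128, as did unscaled values (-0.46) and median centring (-0.35). Of the 17 other settings that left out no single array, 6 kept the call. The second probe set (1416430_at) was steadier, at 327, 389, 304 and 355 on the quiescent arrays against 248, 246, 168 and 128 on the activated ones. Here the groups did not overlap, and Cat fell by 0.80 ± 0.17 (limma, adjusted p = 0.0008985), with differences of -0.50 and -1.09 for the small-sample and two-cycle kits. Neither probe set differed between quiescent and non-myogenic cells beyond the threshold, with intervals of -1.05 to 0.37 and -0.43 to 0.31, but without quiescent replicate 3 the leading probe set of Cat was called lower in quiescent cells, at -0.78 (limma, adjusted p = 0.02979). Against non-myogenic cells activated cells were lower at both, by differences of -1.11 ± 0.33 and -0.86 ± 0.17 (limma, adjusted p = 0.008336 and 0.0005431). The first of these calls was lost after median centring, at -0.68 (limma, adjusted p = 0.07876), and its difference was -0.95 with the small-sample kit alone.

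The 2 superoxide dismutase genes moved apart. Sod2, the mitochondrial manganese enzyme, read 1167, 1057, 1013 and 829 on the quiescent arrays by its leading probe set (1448610_a_at). It read 1464, 1346, 1379 and 1218 on the activated arrays and 743, 968, 834 and 759 on the non-myogenic arrays. All activated arrays were above the others, while quiescent and non-myogenic arrays overlapped. Sod2 rose by 0.41 ± 0.15 on activation (limma, adjusted p = 0.02179) and by 0.49 ± 0.16 at a second probe set (1417193_at; limma, adjusted p = 0.01725). Neither rise passed the threshold after quantile normalization, at 0.32 and 0.38, or within the small-sample kit alone, at 0.33 and 0.15. The first was also lost without quiescent replicate 4 (0.32) or activated replicate 1 (0.39) or 3 (0.38), and the second without quiescent replicate 3 (0.37) or activated replicate 3 (0.41) or 4 (0.45). Quiescent and non-myogenic cells differed by 0.27 and 0.34, neither called, though the second was called without quiescent replicate 3, at 0.48 (limma, adjusted p = 0.03359). Against non-myogenic cells the activated cells were higher by 0.68 and 0.83 (limma, adjusted p = 0.0009997 and 0.0005573), and the second was 0.71 with the small-sample kit alone. The remaining probe set of Sod2 was too dim to be tested, at 18.5 to 49.5 over all arrays. Its mean was lower on activated than on quiescent arrays, at 32.2 against 41.5, and the arrays overlapped. With all probe sets of the gene averaged, the rise of Sod2 on activation was 0.21 and not called (limma, adjusted p = 0.1591).

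Sod3, the extracellular copper and zinc enzyme, read 277, 114, 55.1 and 139 on the quiescent arrays (1417633_at). It read 2.93, 2.39, 9.68 and 3.17 on the activated arrays and 899, 479, 701 and 595 on the non-myogenic arrays. The groups did not overlap, and every activated signal was under the added constant of 14.6, so the size of the difference depends on that constant. Sod3 fell by 2.90 ± 0.32 on activation (limma, adjusted p = 2.85e-06), and the difference was -4.06 or -1.59 with a smaller or larger constant. The other probe set (1417634_at) fell by 2.03 ± 0.28. The difference of quiescent from non-myogenic cells was -2.33 ± 0.32 (limma, adjusted p = 5.242e-05). The endothelial, fibroblast, and pericyte and smooth muscle sums given above have the same order of groups as Sod3. Gstm2 and Mgst1, described below, have that order too.

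**Figure D2:**
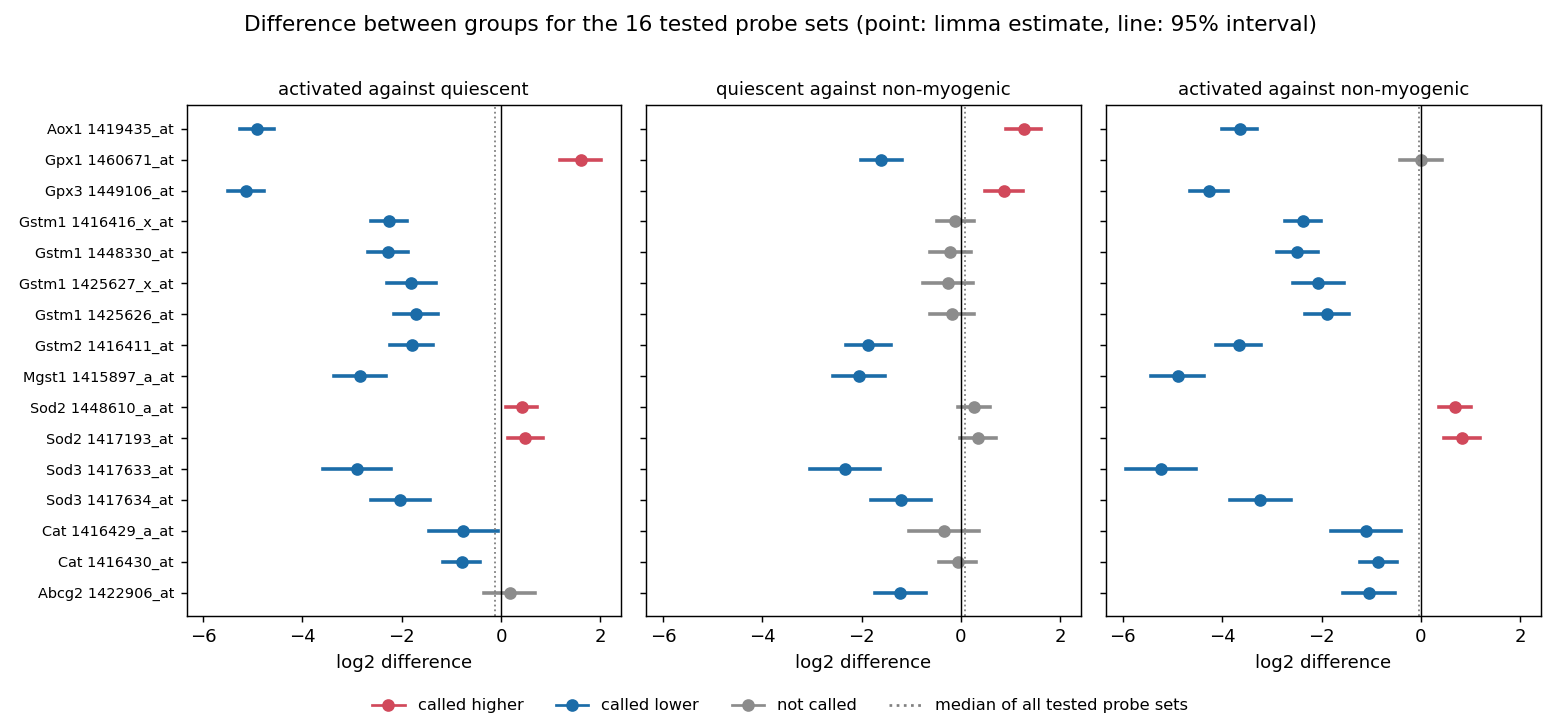
Log2 difference with its 95% interval for each of the 16 tested probe sets in the 3 comparisons, which share arrays. Gpx3 and Aox1 lie furthest below 0 for activated against quiescent cells, at -5.13 and -4.91, and only Gpx1 and Sod2 have intervals above 0.

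The 3 transferase genes among the members, Gstm1, Gstm2 and Mgst1, fell on activation. Gstm1, a cytosolic transferase of the mu class, read 3472, 2218, 2225 and 2426 on the quiescent arrays by its leading probe set (1416416_x_at). It read 666, 586, 431 and 429 on the activated arrays and 2571, 2385, 2845 and 2705 on the non-myogenic arrays. Activated arrays lay below all others, and quiescent and non-myogenic arrays overlapped. Gstm1 fell by 2.26 ± 0.17 (limma, adjusted p = 6.807e-08), and the other 3 probe sets of the gene also fell, with differences of -2.27, -1.81 and -1.71. The last, of the dimmest probe set (1425626_at), was -1.10 with the larger constant. None of the 4 was called between quiescent and non-myogenic cells, with differences from -0.26 to -0.11. On unscaled values 1 of them (1448330_at) was called lower there, at -0.61 (limma, adjusted p = 0.04153). The mu class genes are close copies, and probe sets whose names end in _x_at can bind more than 1 of them, so Gstm1 values may hold signal of its neighbours.

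Gstm2, its relative, read 395, 392, 140.3 and 183 on the quiescent arrays, 76.2, 74.1, 43.3 and 59.4 on the activated arrays, and 884, 794, 913 and 851 on the non-myogenic arrays. The groups did not overlap, and the higher pair of quiescent arrays were those of the small-sample kit. Gstm2 fell by 1.80 ± 0.20 on activation (limma, adjusted p = 4.097e-06) and was lower in quiescent than in non-myogenic cells, at -1.87 ± 0.21 (limma, adjusted p = 7.788e-06). Within the kits the second difference was -1.14 and -2.31.

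Mgst1, a membrane-bound transferase that also reduces lipid peroxides, read 696, 378, 576 and 483 on the quiescent arrays. It read 74.1, 112, 34.1 and 42.0 on the activated arrays and 2149, 1987, 2073 and 2046 on the non-myogenic arrays. The groups were again wholly apart, in the order of Gstm2 and Sod3. Mgst1 fell by 2.84 ± 0.24 on activation (limma, adjusted p = 2.463e-07), and the difference of activated from non-myogenic cells was -4.89 ± 0.25 (limma, adjusted p = 8.716e-10). The latter was -4.20 with the larger constant. Its second probe set stayed between 0.438 and 15.7 on every array and was not tested. With both probe sets averaged, the differences of Mgst1 were -1.55 and -2.61.

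Aox1, a molybdenum enzyme that oxidises aldehydes and releases hydrogen peroxide, read 922, 1077, 895 and 902 on the quiescent arrays. It read 25.5, 29.4, 11.1 and 8.54 on the activated arrays and 423, 329, 302 and 391 on the non-myogenic arrays. As with Gpx3, quiescent arrays were highest and activated arrays lowest, without overlap. Aox1 fell by 4.91 ± 0.16 on activation (limma, adjusted p = 5.771e-11), and was 1.26 ± 0.16 higher in quiescent than in non-myogenic cells (limma, adjusted p = 2.519e-05). A pair of activated signals lay under the added constant, and the activation difference was -5.54 with the smaller constant and -3.71 with the larger one.

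Abcg2, an efflux transporter known from stem cell side populations, read 319, 151, 322 and 228 on the quiescent arrays. It read 309, 396, 233 and 207 on the activated arrays, which overlapped them, and 609, 563, 610.1 and 511 on the non-myogenic arrays, which lay above both. The difference on activation was 0.17 ± 0.24, with a 95% interval of -0.34 to 0.68 (limma, adjusted p = 0.5289). It had opposite signs in the 2 kits, 0.63 and -0.28, and after median centring it was called higher, at 0.59 (limma, adjusted p = 0.03701). The difference of quiescent from non-myogenic cells was -1.22 ± 0.24 (limma, adjusted p = 0.0009213), and it was -1.41 with the small-sample kit alone.

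**Figure D3:**
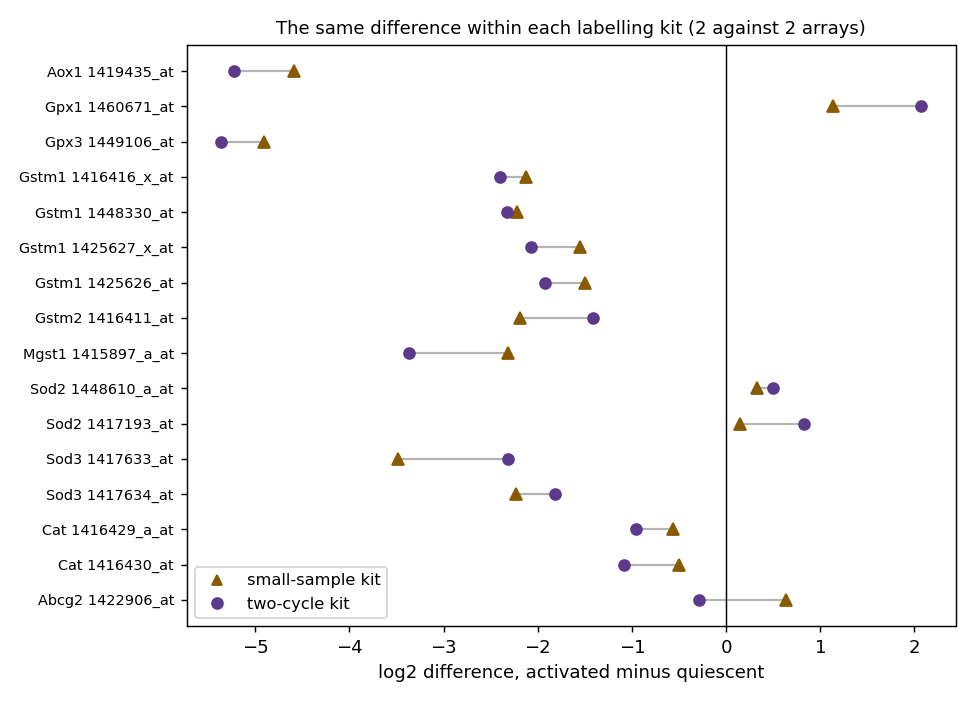
Log2 difference between activated and quiescent cells for each tested probe set, shown separately for arrays of the small-sample kit and arrays of the two-cycle kit. The kits share the sign for every probe set but that of Abcg2, at 0.63 and -0.28.

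Between quiescent and non-myogenic cells, 2 of the 16 probe sets were higher (Aox1 and Gpx3), 6 were lower and 8 were not called, where 51.5% of all tested probe sets were called, 27.6% higher and 23.8% lower. Of the 18, 3 lay wholly above and 6 wholly below the non-myogenic arrays, against 19.3% and 18.8% of all tested (38.1% in all). Those above were Aox1, Gpx3 and the Sod2 probe set that was too dim to be tested. The median difference was -0.24, against 0.08 over all. The members lower in quiescent cells were Gpx1, Gstm2, Mgst1, Sod3 and Abcg2. Between activated and non-myogenic cells 13 were lower, 2 (both of Sod2) were higher and Gpx1 was not called, against 70.0% called over all, 34.2% higher and 35.8% lower. Of the 18, 2 lay wholly above and 11 wholly below, against 28.9% and 29.5% of all tested (58.4% in all). The comparisons share arrays and are not independent of each other.

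Genes that work beside the members were counted from 5 lists by their leading probe set. On activation 30.6% of all tested probe sets rose and 37.7% fell, and counts near these shares say little of a list. From quiescent to activated cells, 4 of 11 tested genes of glutathione synthesis and recycling rose and 3 fell. Gclm, the modifier subunit of the enzyme that makes the glutathione precursor, rose by 2.53 ± 0.35, and Oplah, which recycles oxoproline to glutamate, fell by 3.34 ± 0.19. The mean activated signal of Oplah, 12.6, lay under the added constant, so the size of its difference depends on that constant. Over the other settings that left out no single array it ran from -4.07 to -2.16. Chac1, which breaks glutathione down, rose by 1.81 ± 0.31. Of 14 other glutathione peroxidases and transferases, 5 rose and 7 fell, with Gstt1 at -4.22 ± 0.16 and Gsta4, a transferase for lipid aldehydes, at 1.99 ± 0.21. Of 17 peroxiredoxin, thioredoxin and other dismutase genes, 9 rose and 4 fell. Txnip, the inhibitor of thioredoxin, fell by 5.58 ± 0.32. Glrx, a glutaredoxin that uses glutathione, rose by 1.60 ± 0.24, and Prdx3, the mitochondrial peroxiredoxin, rose by 1.18 ± 0.20. With the small-sample kit alone 5 genes of this list rose and 2 fell, and 2 fell on unscaled values or after median centring.

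Of 19 genes of the Nrf2 pathway and NADPH supply, 8 rose and 6 fell, and the small Maf factors Maff and Mafk, which pair with Nrf2, fell, at -4.16 ± 0.31 and -3.23 ± 0.20. Sesn1, a stress-response gene of the sestrin family, fell by 3.33 ± 0.21. Maff, Mafk and Sesn1 had the largest differences of this list. Among the genes that rose were Me1, Hmox1 and Pgd, by 2.46 ± 0.18, 2.42 ± 0.39 and 2.38 ± 0.18. Of 16 aldehyde and xenobiotic enzymes and efflux transporters, 1 rose and 9 fell, where 30.6% of all tested probe sets rose and 37.7% fell. Aldh1a1, which makes retinoic acid, fell by 6.13 ± 0.14, and Ephx1, an epoxide hydrolase, fell by 4.39 ± 0.22. Abcb1a, an efflux transporter like Abcg2, fell by 3.20 ± 0.24. The mean activated signals of Aldh1a1 and Abcb1a, 2.35 and 5.86, lay under the added constant, so the sizes of these differences depend on it. Over the other settings that left out no single array, Aldh1a1 ran from -7.65 to -4.33 and Abcb1a from -4.41 to -1.82. The median differences of the 5 lists were 0.15, -0.39, 0.53, 0.11 and -1.14 in this order, against -0.12 over all tested probe sets. The first list's count of genes that rose was 8 after median centring.

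**Figure D4:**
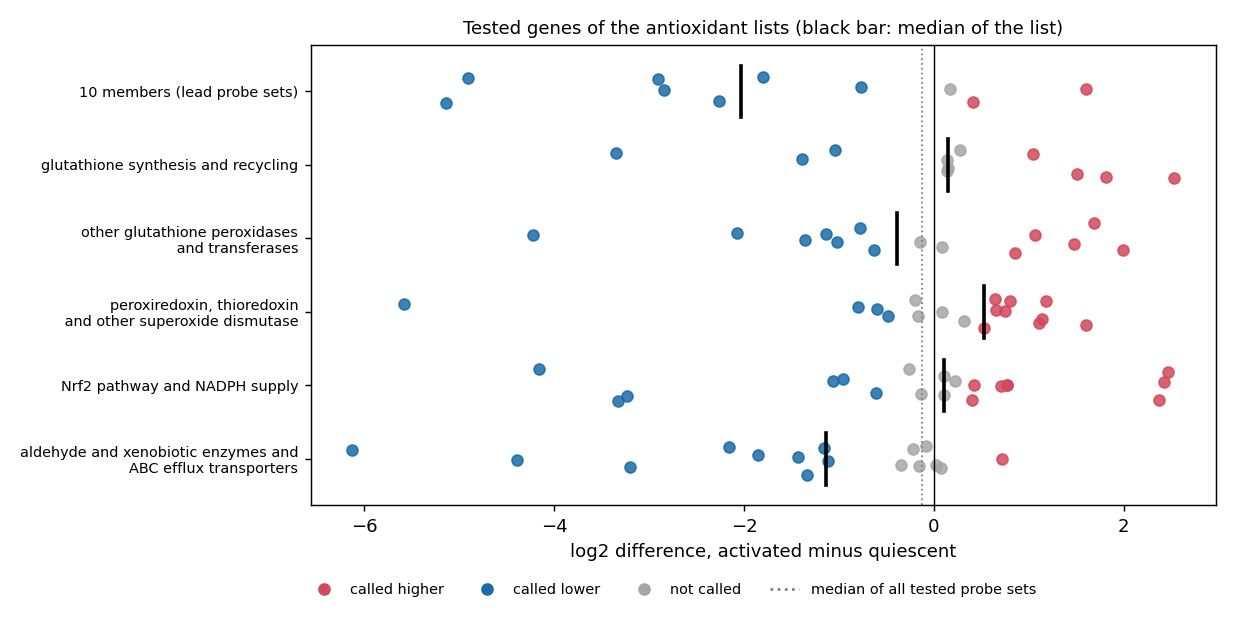
Log2 difference between activated and quiescent cells for the 10 members and each tested gene of the 5 lists, coloured by call, with a black bar at the median of each row and a dotted line at the median of all tested probe sets. The aldehyde, xenobiotic and transporter list has its median at -1.14, and the peroxiredoxin and thioredoxin list at 0.53.

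Between quiescent and non-myogenic cells, 27.6% of all tested probe sets were higher and 23.8% lower, and counts near these shares say little of a list. Of the 19 genes of the Nrf2 list 6 were higher and 7 lower, but 2 were higher on unscaled values. Maff and Mafk were higher in quiescent cells, by 2.81 ± 0.31 and 1.80 ± 0.20, and Tkt was lower, at -1.48 ± 0.20. Among the other peroxidases and transferases 2 were higher and 7 lower, with Gpx8 and Gpx7, which act in the endoplasmic reticulum, at -2.07 ± 0.18 and -1.79 ± 0.18. Only 1 of these genes was higher on unscaled values, with the larger constant, and without the signal filter or with a stricter one. The count was also 1 with trended and robust variances in limma and with the replicate number as a block. It was 1 as well without quiescent replicate 1, 3 or 4, or without any 1 of the non-myogenic arrays. Of the aldehyde and xenobiotic list 3 were higher and 8 lower, with Aldh1a3 at -3.76 ± 0.23 and Xdh, which makes uric acid, at -3.35 ± 0.27. The mean quiescent signal of Aldh1a3, 5.69, lay under the added constant, so the size of its difference depends on that constant. Over the other settings that left out no single array it ran from -4.97 to -2.31. Of the thioredoxin list 2 were higher, Txnrd1 by 1.18 ± 0.20 and Txnrd3 by 0.85 ± 0.15, and 2 were lower, with Glrx at -1.21 ± 0.25. The count of lower genes was 7 on unscaled values and 6 with the two-cycle kit alone. With the small-sample kit alone the differences of Txnrd1, Txnrd3 and Glrx were 0.86, 0.91 and -0.61. Of the 11 genes of glutathione synthesis and recycling 3 were higher, with Gclc, the catalytic partner of Gclm, at 0.67 ± 0.19, and 2 were lower, with Ggt5, which cleaves extracellular glutathione, at -2.41 ± 0.19. No gene of this list was called higher on unscaled values or with the replicate number as a block beside the kit, where Gclc stood at 0.29 and 0.61. With the small-sample kit alone Gclc stood at 0.69. At an unadjusted p under 0.05 limma gave 0 higher genes on unscaled values and 3 with the block.

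As a description, the genes most like each member across the 12 arrays were found by Pearson's r over 7970 other genes. For Aox1 they were Meg3 (0.997) and P2ry14 (0.995), for Gpx3 Bmp6 and Medag (both 0.996) and for Mgst1 Sqor (0.995) and Il18 (0.994). For Gstm1 they were Rnf167 and Cyp2d22 (both 0.990), for Gstm2 Marchf2 (0.990) and P3h3 (0.989), for Sod2 Pcmt1 (0.939) and Nmd3 (0.931), for Cat Cdkl2 (0.870) and Map7 (0.853) and for Abcg2 Cald1 (0.947) and Mcfd2 (0.945). For Gpx1 they were Ccdc12 (0.975) and Uqcc2 (0.974), and for Sod3 Eng (0.986), an endothelial marker, and Pcsk5 (0.984). All values share the same 3 groups of arrays. The names depend on the processing: of these 20 genes, 6 were still among the nearest pairs on unscaled values and 6 without quiescent replicate 3. Among members, Aox1 and Gpx3 had r = 0.987, Gstm2 and Sod3 0.969, and Gstm2 and Mgst1 0.956 over the 12 arrays.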

How the data were processed

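Total RNA was amplified and labelled for Affymetrix Mouse 430A arrays, 5 with a small-sample kit and 7 with a two-cycle kit per the labels. The deposited values are linear probe set intensity values that the submitters' processing notes credit to MAS5, with version and settings not given in the sources used here. Trimmed means ran from 322 to 499.8 with the first kit and from 159 to 234 with the second. Each array was scaled to a 2% trimmed mean of 234, and log2(signal + 14.6) was fitted with limma 3.58.1 in R 4.3.3, with group and kit as terms and 8 residual degrees of freedom. Probe sets assigned to 1 gene (20380) with a mean signal of at least 46.7 were tested, 12095 in all. The limma fit alone was tried on simulated log2 values with normal scatter, in which a small part of the probe sets was changed. That trial did not cover the scaling, the added constant or the signal filter. No detection calls were used. All member probe sets are named, and from each list the 3 called genes with the largest differences were eligible. Me1, Hmox1 and Pgd were named besides, because the eligible genes of their list all fell on activation. Members and lists were chosen with earlier results of these data known. Other scalings, constants, filters, kits, fits and left-out arrays were tried. The alternatives for the lists and for the likeness of genes, and the one without the small-sample activated arrays, were chosen after seeing the data. The number of arrays limits the precision.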

Additional observations from a re-analysis of the deposited data

Results flagged for a closer look

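Among 54 groups of 4 arrays, 2 held an array far from the other 3 by Dixon's test, which chance does in about 1 of 20 groups. Aox1 on quiescent replicate 2 had a log2 value of 10.0925, against 9.83 to 9.87 on the other quiescent arrays. Sod3 (1417633_at) on activated replicate 3 had 4.602, against 4.09 to 4.15 on the other activated arrays, a signal of 9.68 that is under the added constant.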

How the results depend on the processing

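Of 1353 values of member probe sets under 17 other settings and 12 left-out arrays, 1308 kept their direction and side of the threshold and 45 did not. Member probe sets called higher in activated than quiescent cells numbered 1 in place of 3 with the small-sample kit alone, with quantile normalization and with each gene's probe sets averaged, and 1 to 3 with arrays left out (1 without activated replicate 3). Those called lower numbered 7 by 1 probe set or mean for each gene, where 10 genes are tested, and 11 to 12 with arrays left out. Between quiescent and non-myogenic cells, 1 was called higher on unscaled values, and 2 to 3 higher and 6 to 7 lower with arrays left out. Between activated and non-myogenic cells, 1 was higher by 1 probe set or mean for each gene, which gave 8 lower, and 2 higher and 13 lower with any array left out. The replicate number as a block with the kit gave 3 higher and 12 lower, 2 and 6, and 2 and 13 in the 3 comparisons. Same-numbered activated and quiescent samples deviated together (r from 0.17 to 0.31), but share a kit. After a kit term r ran from -0.50 to -0.14. What is left after that term must balance out over the arrays of a kit, which lowers r whether or not samples are paired. So r cannot tell whether the numbers pair samples. The labels do not say, and no pairing was used. Scaling moved all probe sets: the share of calls that were higher in activated than quiescent cells was 44.8%, against 59.0% unscaled and 64.9% with median centring, with medians over all of -0.12, 0.17 and 0.29. It was 23.6% unscaled against 53.7% between quiescent and non-myogenic cells, and 65.7% with median centring against 48.8% between activated and non-myogenic cells. Of the 20 genes named as most like a member, 6 stayed nearest on unscaled values, 9 with median centring, 8 with quantile normalization, 13 with the larger constant and 6 to 16 with arrays left out. Of 862 values of the list genes picked by size of difference, 7 lost their call and none reversed. Genes picked for large called differences tend to keep their calls, so this says little of the other list genes. Me1, Hmox1 and Pgd were not among the picked genes. Of 580 counts for the lists, 44 moved by more than 1.5 times, 12 of them with the small-sample kit alone. That kit had only 1 non-myogenic array. The cause of these changes was not tested. No detection calls bound low signals such as Sod3 in activated cells.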
